A study of Mus musculus with 10 samples.

Results

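Genes that carry an interleukin or tumour necrosis factor (TNF) name were followed in mouse liver with and without the nuclear orphan receptor TAK1/TR4. They were all non-control array features whose gene name in the files starts with Il and a number or with Tnf. The rule took 270 of 43379 spots, 180 of 41174 probes and 126 of 27670 gene names. By known function, 49 of the 126 genes encode ligands, 55 receptors and 9 antagonists or decoys. The other 13, labelled TNF-induced and other in the figures, are mainly genes with a Tnfaip name. These and Tnfsg5 were grouped by name, not by any shown induction by TNF. Names were updated where a gene table allowed, and 8 of the 126 became names of another kind. Il8ra and Il8rb are now the chemokine receptors Cxcr1 and Cxcr2, Tnfrsf7 and Tnfsf7 are Cd27 and Cd70, Tnfrsf19l is Relt, Il28 and Il28ra are the interferon lambda genes Ifnl3 and Ifnlr1, and Tnfsf5ip1 is the proteasome assembly factor Psmg2. The rule did not take Il33, which the files list under a clone name.

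Each sample of total liver RNA was read on its own Agilent mouse array in 1 colour (Cy3). The wild-type group (WT1 to WT5) and the knockout group (KO1 to KO5) held 5 arrays each, all from C57BL/6 mice at the age of 1 year. The knockout mice lacked TAK1/TR4, whose gene is Nr2c2. This receptor is not the kinase Map3k7 of cytokine signalling, which is also called TAK1. The labels give no sex, no diet and no description of the deleted part of the gene, and they do not say whether the arrays hold RNA of separate mice, so the spread behind each p-value may be technical. The series asks how loss of the receptor bears on inflammation, fat storage and insulin sensitivity in the liver.

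Interleukins are secreted by immune cells, endothelium and injured tissue and act through paired receptor chains. Receptors of the interleukin-6 family share the chain gp130 and signal through Janus kinases and STAT factors. Receptors for interleukin-1 and for TNF feed into NF-kappaB. In liver, Kupffer cells are a main source of interleukin-6, interleukin-1 and TNF, and hepatocytes answer interleukin-6 with the acute phase response.

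Values below are log2 signals relative to the 75th percentile of each array, which lay between 950.3 and 1344 in signal units. A probe counted as detected where the scanner software flagged it as well above background, which held for 51.0% to 62.4% of probes per array. Of 3 probes at the targeted gene, 1 was detected on 5 wild-type and 0 knockout arrays, a drop of at least 5.41-fold (exact permutation p = 0.0079, the smallest that 5 against 5 arrays can give). Both probes named Nr2c2 were detected on all 10 arrays, at 0.44 and 0.36 above wild type, and it is not known here on which side of the deletion they lie. Slide 2 was the only slide with both genotypes and held WT5, KO1, KO2 and KO3, while slide 1 held the other wild-type arrays, and KO5 and KO4 had slides 3 and 4 to themselves. Slide 4 was scanned later than the rest. Within-slide values below therefore come from slide 2 alone.

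Receptors were detected in liver more often than their ligands. A gene counted as detected on an array where any of its probes was. Of 55 receptors, 27 (49.1%) were detected on all 10 arrays and 8 (14.5%) on none. Of 49 ligands, 8 (16.3%) were detected on all 10 arrays and 22 (44.9%) on none. Among all gene names on the array, 50.5% were detected on all 10 arrays and 28.9% on none, so receptors were near all names in the share on all 10 arrays and below them in the share on none, and ligands were below all names in the first and above them in the second.

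**Figure D1:**
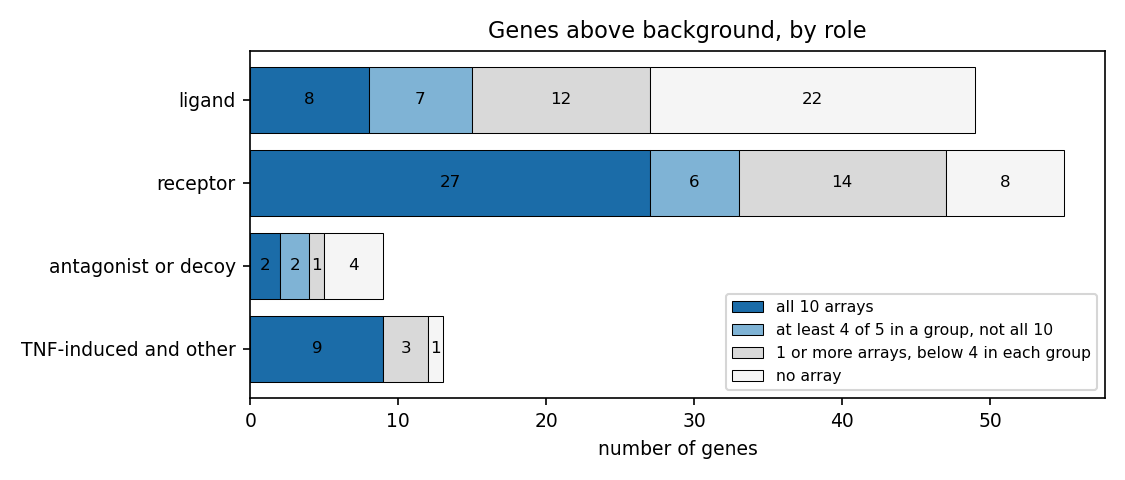
Number of genes by role (horizontal bars, total length the number of genes of that role) and by the arrays on which they were well above background. Of 49 ligands 22 were detected on no array, against 8 of 55 receptors.

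TNF itself was not detected on any of the 10 arrays. The array carries its probe 10 times, and the mean of these spots ran from -6.06 to -5.82 in wild type and from -6.24 to -5.44 in the knockout, all below the detection flag. Il10, the main anti-inflammatory interleukin, and Il12b, the shared chain of interleukin-12 and interleukin-23, are also printed 10 times each and were detected on 0 of 10 arrays. The T cell interleukins Il4, Il5, Il9, Il17a, Il21 and Il22 were on 0 arrays as well, as were Il7, Il23a, Il25 and the TWEAK gene Tnfsf12. A probe below the flag sets only an upper limit on its transcript.

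The ligands detected on all 10 arrays were Il1a and Il1b, Il18, Il15, Il16, Il27, the B cell survival factor gene Tnfsf13 (APRIL) and the T cell co-stimulator Tnfsf14. A further 7 reached the level required for a test, at least 4 of 5 arrays of a group. These were Il6, Il11, Il13, Il17d, Il24, Tnfsf10 (TRAIL) and Tnfsf13b (BAFF). Il12a, the other chain of interleukin-12, was detected on 0 wild-type and 3 knockout arrays and fell short of that level.

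In several families receptor genes were detected where ligand genes were not. All 5 interleukin-17 receptor genes reached the test level, against 1 of 6 interleukin-17 ligands. Of 19 TNF receptor genes 11 did, against 4 of 13 TNF ligands. Both receptors of TNF itself, Tnfrsf1a and Tnfrsf1b, were detected on all 10 arrays although Tnf was not. Il6ra, Il6st (gp130), Il27ra, Il11ra1 and Il12rb1 were detected on all 10 arrays, while the receptor genes Il12rb2, Il18rap, Il20ra, Il23r, Il5ra and Il9r were detected on none, as were Tnfrsf8 and Tnfrsf17. The decoy receptor gene Il1r2, which binds interleukin-1 without signalling, was also on no array.

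The number of genes detected per array was 73, 65, 65, 53 and 64 in wild type and 63, 69, 51, 74 and 68 in the knockout, and the groups overlapped. Of the 126 genes, 95 (75.4%) were detected on the same number of arrays in both groups, against 83.6% of all gene names, 14 on more wild-type arrays and 17 on more knockout arrays. Of the 61 genes that could be tested, 55 passed in both groups. Il1rn, Il13, Tnfrsf13b and Tnfrsf13c passed through the wild-type group only, and Il6 and Il1rl2 through the knockout group only, so for these 6 the passing itself depended on the group.

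Knockout was set against wild type with limma over all 15810 genes that passed the filter, to ask which of these genes differ in liver without the receptor. Il6 and Tnfaip8l1 passed an adjusted p of 0.05, both higher in the knockout, and no other gene of the group did. Il6 entered the test through the knockout group only and did not pass without the filter. That is 2 of 61 tested (3.28%) against 5.91% of all genes tested, of which 2.44% were higher and 3.48% lower. In numbers, 385 of 15810 genes were higher and 550 lower, a split that became 313 and 156 with no scaling between arrays and 153 and 558 with scaling to the median. At an unadjusted p of 0.05, 15 of 61 passed (24.6%), 13 higher and 2 lower, against 23.7% of all genes. The counts of calls were thus near or below those of the whole array.

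**Figure D2:**
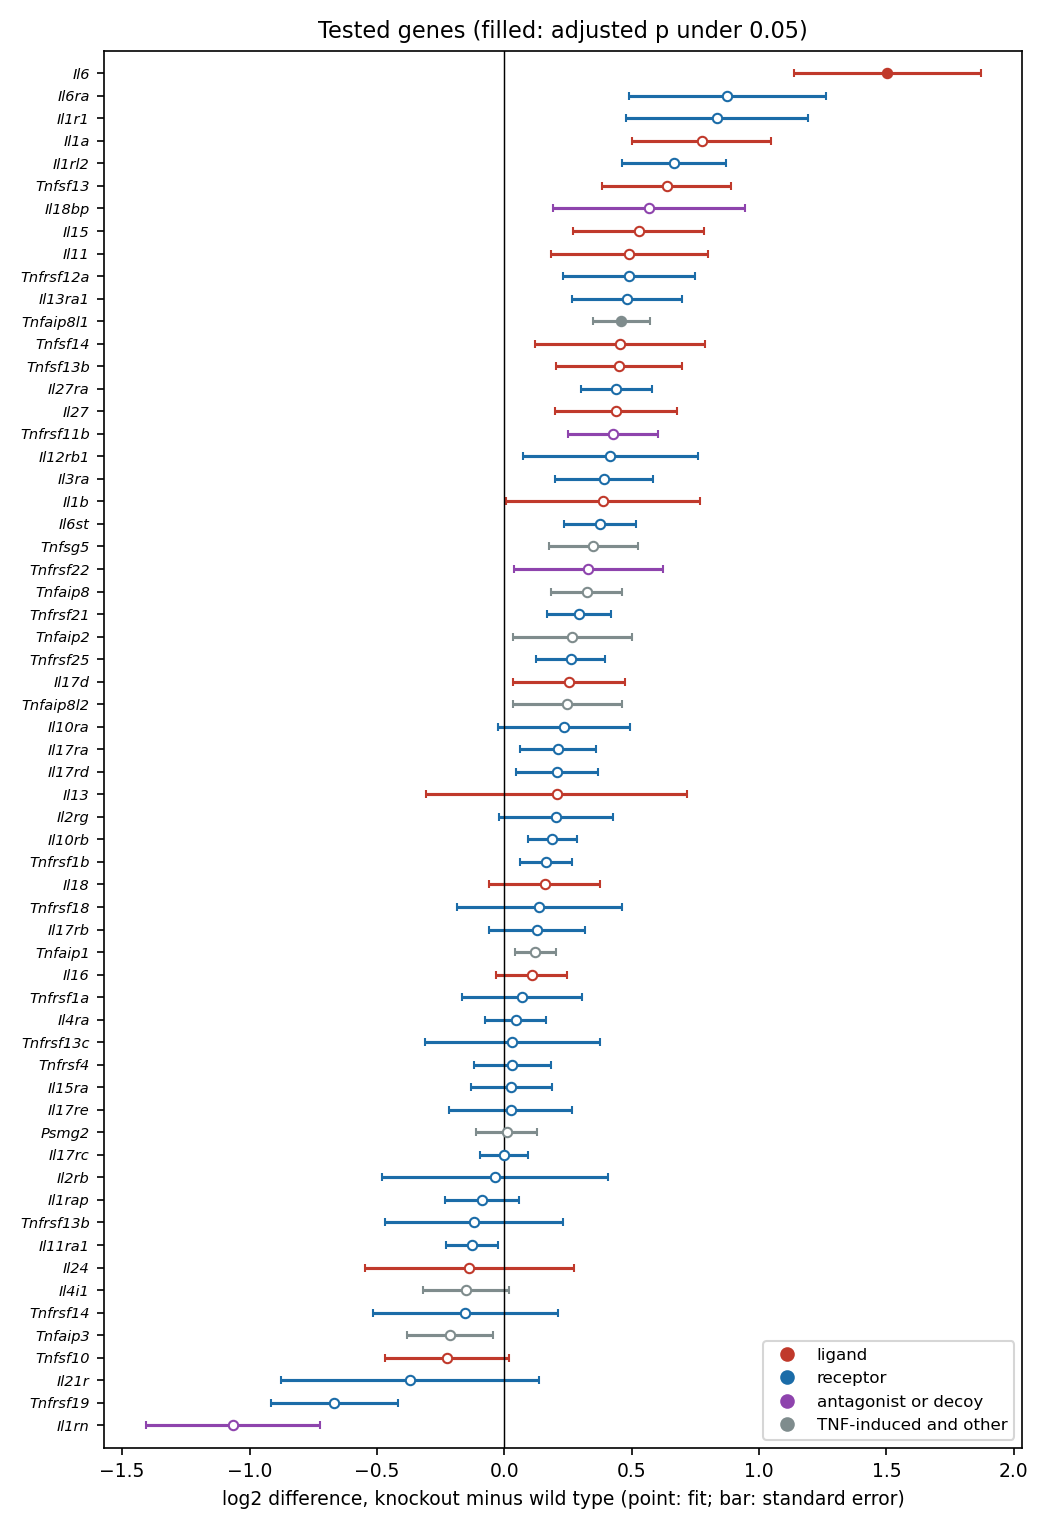
Log2 difference, knockout minus wild type, of the 61 tested genes, with the standard error of the limma fit as the bar and the role as the colour. Filled points are Il6 (1.50) and Tnfaip8l1 (0.46), the only 2 with an adjusted p under 0.05, and 48 of 61 points lie above 0.

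Among the ligands, Il6 was higher in the knockout. Interleukin-6 is the main inducer of the hepatic acute phase response. Its log2 signal was -4.89, -5.90, -5.87, -6.19 and -5.33 on WT1 to WT5 and -4.72, -2.98, -4.89, -4.03 and -4.05 on KO1 to KO5. The groups did not overlap, but KO3 and WT1 were level to 2 decimals, and KO2 was the highest. The probe was dim: it was detected on 1 wild-type array, WT1, and on 4 knockout arrays, all but KO3.

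The mean was -5.64 ± 0.52 in wild type and -4.14 ± 0.75 in the knockout (SD, n = 5 each). The wild-type mean is mostly made of upper limits, so the fold is stated as a bound, at least 1.44-fold higher. The measured means differed by 1.50 ± 0.37 (SE; limma adjusted p = 0.0425, exact permutation p = 0.0079). Detection in the knockout alone brought Il6 into the test, and with no filter on dim probes its adjusted p was 0.109. The bound sets the knockout mean against, on each wild-type array, the higher of the probe's signal and the lowest signal of any detected probe.

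The Il6 call was narrow. It was lost when any 1 of WT2, WT3, WT4, WT5, KO4 or KO5 was left out, and the adjusted p over the 10 arrays left out in turn ran from 0.0373 to 0.108. With normexp background correction, which adds an offset to dim signals, and quantile normalisation the difference was 0.48 (adjusted p = 0.082). Within slide 2, where KO1 to KO3 can be set against WT5 alone, it was 1.14, in a fit where 2 of 15771 genes passed at all.

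The Il6 signal rests on 1 probe, and its first 30 bases are given here because the call turns on them. The probe of Tnf follows, as the main ligand that was not detected.
Il6 probe, bases 1 to 30 of 60: atattctgttacctagccagatggtttctt
Tnf probe, bases 1 to 30 of 60: tgggctttccgaattcactggagcctcgaa
The files place them at chr5:29052734-29052793 and, on the reverse strand, chr17:33296067-33296126 of mouse build mm7. Their 60 bases hold 35.0% and 51.7% G or C. No annotation of that build was used here, so exon or untranslated region is not stated.

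The Il6 promoter holds a match to an NF-kappaB motif, searched as the letters GGGA and TTTCC with any 1 base between them, on both strands of RefSeq promoter windows (GRCm38.p6, from 250 bases before to 50 bases after each gene start). Windows were found for 99 of the 126 genes, 118 windows in all, and 2 (1.69%) held the motif, against 0.411% of all 32851 windows. The 2 were those of Il6 and Il16, the gene of a T cell chemoattractant, shown with the motif in capitals and 10 bases on each side.
Il6 promoter: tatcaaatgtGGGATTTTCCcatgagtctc
Il16 promoter: catgactgctGGGAATTTCCcgctaaaggt
These lie at chr5:30013060-30013089 on the forward strand and chr7:83655525-83655554 on the reverse strand, with the motif starting at -44 and -49 from the gene start. Il16 differed by 0.11 ± 0.14 (adjusted p = 0.682). The half-site AGGTCA repeated in the same direction with any 1 base between, a letter form of sites bound by TR4, matched 0 of these 118 windows and 0.0396% of all windows. Neither motif contains the other.

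None of the other ligands passed the test. Il1a, an interleukin-1 released by damaged cells, measured -3.29, -3.31, -4.12, -3.68 and -4.29 on WT1 to WT5 and -2.70, -2.84, -2.85, -3.83 and -2.60 on KO1 to KO5. KO4 lay within the wild-type range and the other 4 knockout arrays above it. The difference was 0.78 ± 0.27 (adjusted p = 0.126), and a second, dimmer probe gave 0.88. Without KO4 the difference was 0.99 (adjusted p = 0.0445), and in no other leave-out did it pass.

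Il1b, the interleukin-1 made by activated macrophages, ran from -2.80 to -1.49 in wild type and from -2.72 to -1.21 in the knockout. The ranges largely overlapped, with KO2, KO3 and KO5 above all wild-type arrays and KO1 and KO4 within their range. The difference was 0.39 ± 0.38 (adjusted p = 0.576). Il18, which is matured by the same inflammasome, differed by 0.16 ± 0.22 (adjusted p = 0.701). Tnfsf13 was at -0.63, -1.05, -0.66, -0.69 and -1.10 in wild type and at -0.79, 0.75, -0.17, -0.24 and -0.49 in the knockout. KO1 lay among the wild-type arrays and the other 4 above them, with a difference of 0.64 ± 0.25 (adjusted p = 0.166).

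Il15, which maintains natural killer cells, gave opposite signs on its 2 probes, 0.53 ± 0.26 on the brighter (adjusted p = 0.246) and -0.15 on the other, so no direction is given. Tnfsf10, the ligand of death receptors, was at -0.22 ± 0.24 (adjusted p = 0.616). Il11, a gp130 ligand, passed in 1 alternative only, without WT5, whose signal of -2.79 stood above the -4.56 to -4.17 of the other wild-type arrays, and its difference of 0.49 turned to -0.71 within slide 2. Il13, detected on 5 wild-type and 2 knockout arrays, ran from -4.73 to -3.93 in wild type and from -5.17 to -2.29 in the knockout, with KO4 highest.

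Il27, the gp130 ligand of Il27ra, ran from -0.14 to 0.76 in wild type and from 0.18 to 1.37 in the knockout (0.44 ± 0.24, adjusted p = 0.299). The B cell factor gene Tnfsf13b differed by 0.45 ± 0.25 (adjusted p = 0.301). Tnfsf14 differed by 0.45 ± 0.33 (adjusted p = 0.444), with KO2 at -1.49 and the other knockout arrays between -3.58 and -2.62. In all 3 genes KO2 was the highest of the 10 arrays.

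**Figure D3:**
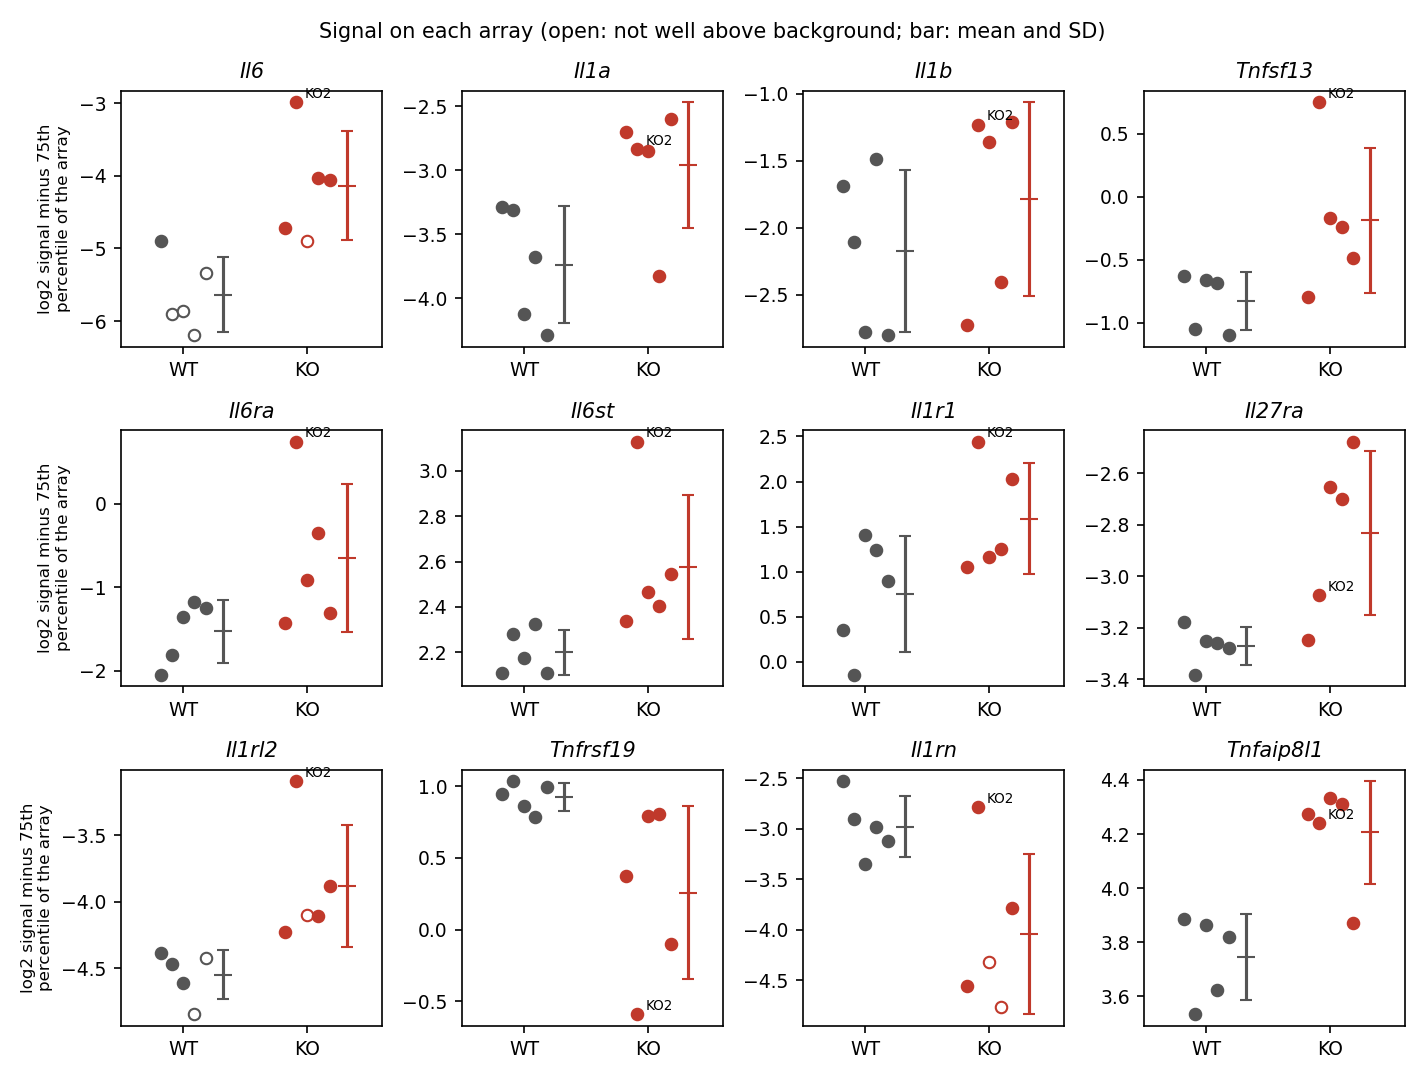
Log2 signal minus the 75th percentile of the array for 12 genes, 1 point per array in replicate order, with the group mean and SD beside the points and open points where the probe was not well above background. Knockout array KO2 is marked. It was the highest of the 5 knockout arrays for Il6, Tnfsf13, Il6ra, Il6st, Il1r1, Il1rl2 and Il1rn, and the lowest for Tnfrsf19.

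Among the 33 receptors tested, 0 passed an adjusted p of 0.05 in limma, while 8 (24.2%) had an unadjusted p under 0.05, against 23.7% of all genes. The interleukin-6 receptor chains were higher on average without passing. Il6st, the signal-transducing chain gp130, was at 2.11, 2.28, 2.18, 2.32 and 2.11 in wild type and at 2.34, 3.13, 2.46, 2.40 and 2.54 in the knockout. Its groups did not overlap, with a narrow gap between WT4 and KO1 and with KO2 far above the rest. The difference was 0.38 ± 0.14 (adjusted p = 0.150, exact permutation p = 0.0079), and 0.24 without KO2.

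Il6ra, the ligand-binding chain, was at -2.04, -1.81, -1.36, -1.18 and -1.25 in wild type and at -1.43, 0.75, -0.91, -0.35 and -1.31 in the knockout. Only KO2, KO3 and KO4 lay above all wild-type arrays, and the difference was 0.88 ± 0.39 (adjusted p = 0.205), or 0.53 without KO2. Its 2 probes differed by 0.88 and 0.99, and both are shown because they read separate stretches of the gene.
Il6ra probe with the higher signal, bases 1 to 30 of 60: cctgcccacattcctggtagctggaggaag
Il6ra second probe, bases 1 to 30 of 60: cctgagacctgggacccgagttactacttg
They sit on the reverse strand at chr3:90003321-90003380 and chr3:90013069-90013128 (mm7), and both were detected on all 10 arrays.

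Il27ra, which pairs with gp130 to bind interleukin-27, was tight in wild type, from -3.38 to -3.18, and measured -3.25, -3.07, -2.65, -2.70 and -2.48 on KO1 to KO5. KO1 lay within the wild-type range and the other 4 above it. The difference was 0.44 ± 0.14 (adjusted p = 0.0958). Il11ra1, the receptor of interleukin-11, was at -0.13 ± 0.10 (adjusted p = 0.491), and near-identical Il11ra copies could share its signal. Of the 8 tested genes of the interleukin-6 and interleukin-12 group, 7 (87.5%) had a positive difference. That compares with 78.7% of the 61 tested genes and 51.9% of all genes. The median of the 8 was 0.44, and they include Il6, which entered the test through the knockout group only.

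The interleukin-1 receptors were mixed. Il1r1, the signalling receptor, ran from -0.14 to 1.41 in wild type and from 1.05 to 2.44 in the knockout, where KO2 and KO5 lay above all wild-type arrays. The difference was 0.83 ± 0.36 (adjusted p = 0.194). Il1rap, its partner chain, was at -0.09 ± 0.15 (adjusted p = 0.759), and 2 of its probes had opposite signs.

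Il1rl2, the receptor of interleukin-36, was dim, detected on 3 wild-type and 4 knockout arrays. Its signals were -4.39, -4.47, -4.62, -4.84 and -4.42 in wild type and -4.23, -3.09, -4.10, -4.10 and -3.88 in the knockout, and the groups did not overlap. The difference was 0.67 ± 0.20 (adjusted p = 0.0864). Il1rl2 entered the test through the knockout group only. Its adjusted p was 0.206 with no filter, and without KO2 it was 0.0398 at a difference of 0.47. With normexp and quantile normalisation the differences of the dim probes shrank, to 0.19 for Il1rl2, 0.18 for Il27ra and -0.56 for Il1rn. Il6, Il1rl2 and Il6st were the only 3 of 61 tested genes (4.92%) with non-overlapping groups, against 9.61% of all genes tested.

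None of the receptors that share the common gamma chain, or of their relatives for interleukin-4 and interleukin-13, passed the test. Il4ra, a chain of both interleukin-4 receptors, differed by 0.05 ± 0.12 (adjusted p = 0.852), and the common gamma chain gene Il2rg by 0.20 ± 0.22 (adjusted p = 0.624). Il13ra1, which can pair with Il4ra, ran from -0.48 to 0.60 in wild type and from 0.18 to 1.03 in the knockout (0.48 ± 0.22, adjusted p = 0.210), and its second probe gave 0.38. Il2rb, found on T and natural killer cells, was spread over -3.86 to -1.07 in the knockout against -2.53 to -1.82 in wild type, with KO1 lowest and KO2 highest.

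Il21r, a lymphocyte receptor gene, was at -3.39, -3.61, -2.73, -3.97 and -1.47 in wild type, where WT5 stood apart, and its difference of -0.37 ± 0.50 (adjusted p = 0.699) was 0.02 without WT5. Both interleukin-10 receptor chains were detected on all 10 arrays although Il10 was not, and Il10ra and Il10rb differed by 0.23 ± 0.26 and 0.19 ± 0.10 (adjusted p = 0.625 and 0.265). The 5 interleukin-17 receptor genes differed by -0.0018 (Il17rc) to 0.21 (Il17ra), none past the test. For Il17rd the 3 probes gave 0.21, 0.32 and 1.21, the same sign at unequal size.

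Receptors of the TNF family showed no call. Tnfrsf12a (Fn14), the receptor of TWEAK, ran from 0.28 to 1.14 in wild type and from 0.60 to 2.11 in the knockout, with KO2 highest (0.49 ± 0.26, adjusted p = 0.283). Tnfrsf21 (death receptor 6) differed by 0.29 ± 0.12 (adjusted p = 0.191). Tnfrsf1a, the main TNF receptor with a death domain, differed by 0.07 ± 0.24 (adjusted p = 0.886), and KO2 at 4.77 stood above all other arrays, the next highest being WT1. Without KO2 its difference was -0.16. Tnfrsf1b, the second TNF receptor, differed by 0.16 ± 0.10 (adjusted p = 0.371). Tnfrsf19 was the receptor with the smallest p among those lower in the knockout.

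Tnfrsf19 (TROY), an orphan TNF receptor, was at 0.94, 1.04, 0.86, 0.79 and 0.99 in wild type and at 0.37, -0.59, 0.79, 0.81 and -0.10 in the knockout. KO3 and KO4 lay within or at the edge of the wild-type range and the other 3 below it. The difference was -0.67 ± 0.25 (adjusted p = 0.145). The tested probes of the B cell receptors Tnfrsf13b (TACI) and Tnfrsf13c (BAFF receptor) were detected on 4 wild-type arrays each and on 1 and 2 knockout arrays, and differed by -0.12 ± 0.35 and 0.03 ± 0.34, with KO2 highest of all 10 arrays for both. A second, dimmer Tnfrsf13b probe was detected on 0 wild-type and 2 knockout arrays and differed by 1.30, so no direction is given.

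Among antagonists and decoys, Il1rn had the most negative difference of the 61 genes. It encodes the interleukin-1 receptor antagonist, which blocks Il1r1. Its signals were -2.53, -2.90, -3.35, -2.99 and -3.12 in wild type and -4.56, -2.78, -4.32, -4.76 and -3.78 in the knockout. KO2 lay within the wild-type range and the other 4 knockout arrays below it, and KO3 and KO4 were below the detection flag. The difference was -1.06 ± 0.34 (adjusted p = 0.0991).

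Il1rn entered the test through the wild-type group only, where it is high, and its adjusted p was 0.222 with no filter. Without KO2 the difference was -1.38 with an adjusted p of 0.00905, with 2 of the 4 remaining knockout signals below the detection flag. Il1rn has a second probe, which was detected on no array, so the value rests on 1 probe. Both are shown since they disagree on detection.
Il1rn detected probe, bases 1 to 30 of 60: tttcttgaccattcattttatcacttctaa
Il1rn undetected probe, bases 1 to 30 of 60: attgctgggtacttacaaggaccaaatatc
The files place them on the forward strand at chr2:24357916-24357975 and chr2:24354826-24355846 (mm7), the latter a span longer than the probe.

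Il18bp, a secreted inhibitor of interleukin-18, differed by 0.57 ± 0.38 (adjusted p = 0.396), and its second probe by 0.61. Tnfrsf11b (osteoprotegerin), a secreted decoy for the RANK ligand, was at -1.28 ± 0.22 in wild type and -0.85 ± 0.36 in the knockout (SD, n = 5 each). The difference was 0.43 ± 0.18 (adjusted p = 0.180), with KO2 highest at -0.25.

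Of the genes grouped by a Tnfaip name, Tnfaip8l1 rose. It belongs to the TNFAIP8 family of lipid-binding proteins. It measured 3.89, 3.53, 3.87, 3.62 and 3.82 on WT1 to WT5 and 4.27, 4.24, 4.33, 4.31 and 3.87 on KO1 to KO5. KO5 lay within the wild-type range and the other 4 knockout arrays above it. The mean rose from 3.75 ± 0.16 to 4.21 ± 0.19 (SD, n = 5 each), 1.38-fold.

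The difference was 0.46 ± 0.11 (adjusted p = 0.0398, exact permutation p = 0.016). The call was lost when any 1 of the 9 arrays other than KO5 was left out, with an adjusted p of up to 0.103, and without KO5 it was 0.0216. With normexp background correction and quantile normalisation the adjusted p was 0.0578. Within slide 2, where KO1 to KO3 are set against WT5 alone and KO5 is left out, the difference was 0.46. Its probe lies at chr17:54331123-54331182 (mm7) and begins as follows.
Tnfaip8l1 probe, bases 1 to 30 of 60: gcggcagatcgtggcttctctcaatggttt

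Tnfaip3 (A20), a brake on NF-kappaB and a standard NF-kappaB target, was at -0.21 ± 0.17 (adjusted p = 0.480). Tnfaip8 differed by 0.32 ± 0.14 (adjusted p = 0.197) and Tnfaip2 by 0.27 ± 0.23 (adjusted p = 0.525). Of 7 tested genes of this group by name, 6 (85.7%) had a positive difference, with a median of 0.27, against 78.7% of the 61 tested genes and 51.9% of all genes. Whether TNF induces them here was not tested. Il4i1, a phenylalanine oxidase induced by interleukin-4, was at -0.15 ± 0.17 (adjusted p = 0.627).

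Small positive differences were common across the group. Of the 61 tested genes 48 (78.7%) were positive with a median of 0.21, against 51.9% and a median of 0.01 over all genes tested. By role, 13 of 15 ligands (median 0.44), 25 of 33 receptors (0.16), 3 of 4 antagonists (0.38) and 7 of 9 other genes (0.25) were positive. These counts include the 6 genes that passed through 1 group only. Among the 55 genes that passed in both groups, 44 were positive, and with no filter 103 of 126 were, against 64.9% of all genes without a filter.

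The median of the 61 genes lay 0.20 above that of all genes in the main setting and 0.13 above it with normexp and quantile normalisation. No scaling and median scaling moved the median of all genes to 0.12 and -0.09, and move every gene alike.

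The lean differed between arrays. The median deviation of the 61 genes from the wild-type mean was 0.03 on KO1, 0.44 on KO2, 0.21 on KO3, 0.15 on KO4 and 0.28 on KO5, and ran from -0.07 to 0.10 on the wild-type arrays. KO1 thus lay within the wild-type range and the other 4 knockout arrays above it. KO2 was the highest of all 10 arrays for 24 of 61 genes (39.3%), against 17.4% of all genes tested, and KO1 was the lowest of the knockout arrays for 29 genes, where it was for 21.9% of all genes. KO2 stood apart in both directions over all genes, as the lowest knockout array for 32.8% of them. Without KO2, 46 of 61 genes were positive with a median of 0.18, and within slide 2, 39 of 61 (63.9%) were, against 47.5% of all genes.

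**Figure D4:**
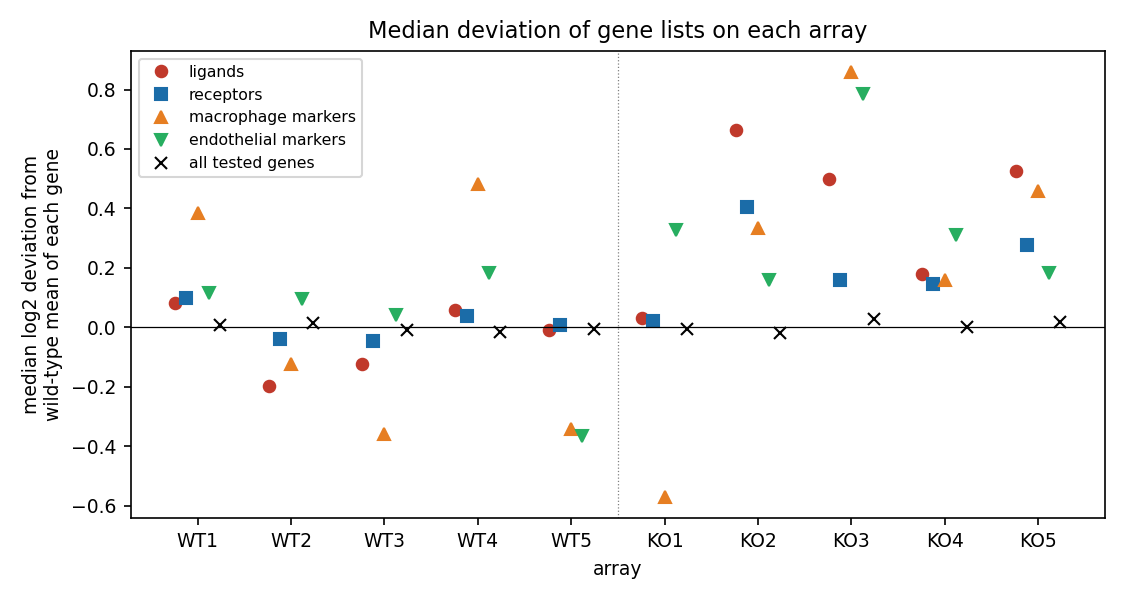
Median log2 deviation from the wild-type mean (vertical axis) on each array (horizontal axis) for ligands, receptors, macrophage markers, endothelial markers and all tested genes. Ligands reached 0.66 on KO2 and 0.03 on KO1, and all tested genes stayed between -0.02 and 0.03.

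Marker lists of liver cell types also differed between arrays, and fewer cells of a type and less RNA per cell cannot be told apart in bulk RNA. Of 15 Kupffer cell and macrophage markers, all tested, 1 was higher (Cd163, a scavenger receptor) and 0 lower, against 2.44% and 3.48% of all genes. Their median was 0.28. Of the 15, 10 (66.7%) were positive and 2 (13.3%) had an unadjusted limma p under 0.05, against 51.9% and 23.7% of all genes. The summed level of the 15 ran from 80.48 to 159.7 in wild type and from 70.64 to 173.6 in the knockout, in units of each array's 75th percentile. Their median deviation was -0.57, 0.34, 0.86, 0.16 and 0.46 on KO1 to KO5, against -0.36 to 0.48 on the wild-type arrays. Of 10 sinusoidal endothelial markers 1 was higher (the Fc receptor gene Fcgr2b), against 2.44% of all genes, with a median of 0.36. Of the 10, 9 (90%) were positive and 7 (70%) had an unadjusted limma p under 0.05, against 51.9% and 23.7% of all genes. The sum of the 10 ran from 22.22 to 32.05 in wild type and from 35.23 to 55.53 in the knockout without overlap. Their median deviation was 0.33, 0.16, 0.79, 0.31 and 0.18 on KO1 to KO5, against -0.37 to 0.18 on the wild-type arrays.

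Of 9 neutrophil markers 3 were tested, with a median of 0.50, and Elane and Camp were detected on no array. The median deviation of the 3 was 1.53 on KO2, higher still on KO5, and -1.3 on KO1. It ran from -1.09 to 1.63 on the wild-type arrays, and WT1 was the highest of all 10 arrays. Of 13 T and NK cell markers 9 were tested, with a median of 0.07 and a deviation of 0.63 on KO2, and Cd8a and Ncr1 were on no array. Of 7 B cell markers 5 were tested, with Cd79a on no array and a median deviation of 1.39 on KO2. The 10 stellate cell markers had a median of 0.05 and the 5 tested cholangiocyte markers one of 0.16, with 0 called in limma and 2 and 0 at an unadjusted p under 0.05. Of 6 adipocyte markers 2 were tested, 1 of them, Cfd, was lower, the median was -2.99 and the summed level ran from 8.247 to 33.98 in wild type and from 4.123 to 7.028 in the knockout, while Adipoq and Lep were on no array. The 9 tested hepatocyte markers had a median of -0.07, 8 of them negative, and a deviation of -0.31 on KO2, and the defining hepatocyte genes Alb, Apoa1 and Ttr were detected on all 10 arrays. The part of these cell types in the differences above was not tested.

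The genes that carry the signal inside the cell were taken as 2 lists outside the rule. Of 30 genes for Janus kinases, STATs, their regulators and gp130 relatives, 27 were tested, 2 were higher and 0 lower, against 2.44% and 3.48% of all genes, and 21 (77.8%) were positive, against 51.9%, with a median of 0.13. Of the 27, 6 (22.2%) had an unadjusted limma p under 0.05, against 23.7% of all genes. Lifr, the leukaemia inhibitory factor receptor that pairs with gp130, rose from 3.80 ± 0.34 to 4.96 ± 0.32 (SD, n = 5 each), 2.23-fold. Its difference was 1.16 ± 0.19 (adjusted p = 0.0118), and it was called with each array left out in turn (adjusted p up to 0.0401). It was not called with slide as a fixed block. Within slide 2, where KO1 to KO3 are set against WT5 alone, the difference was 0.76.

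Socs2, a feedback inhibitor of growth hormone signalling, rose from -0.73 ± 0.81 to 1.48 ± 0.95 (SD, n = 5 each), 4.61-fold, with an adjusted p of 0.0324 that exceeded 0.05 when any 1 of 8 arrays was left out. Socs3, the feedback inhibitor induced through gp130, differed by 0.99 ± 0.46 (adjusted p = 0.223). The groups did not overlap for Lifr, Socs2 and Pias2, all higher in the knockout, against 9.61% of all genes tested in either direction. Pias2 differed by 0.21 ± 0.06 (adjusted p = 0.0803) and was not called.

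Of 57 genes of TNF receptor, interleukin-1 receptor and NF-kappaB signalling, 51 were tested. In limma 0 were higher and 2 lower, against 2.44% and 3.48% of all genes. Of the 51, 7 (13.7%) had an unadjusted limma p under 0.05 and 29 (56.9%) were positive with a median of 0.04, against 23.7% and 51.9% of all genes. Tank, an adaptor of TRAF proteins, fell by 0.39 ± 0.08 (adjusted p = 0.0206), a call lost without WT1 or without WT2. Chuk, the kinase IKK alpha, fell by 0.24 ± 0.06 (adjusted p = 0.0448), a call lost without any 1 of 8 arrays. In this list the groups did not overlap for Tank and Chuk only, against 9.61% of all genes tested. The kinase gene Map3k7 differed by 0.02 ± 0.11 and the NF-kappaB target Nfkbia by 0.14 ± 0.10, neither past the test.

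**Figure D5:**
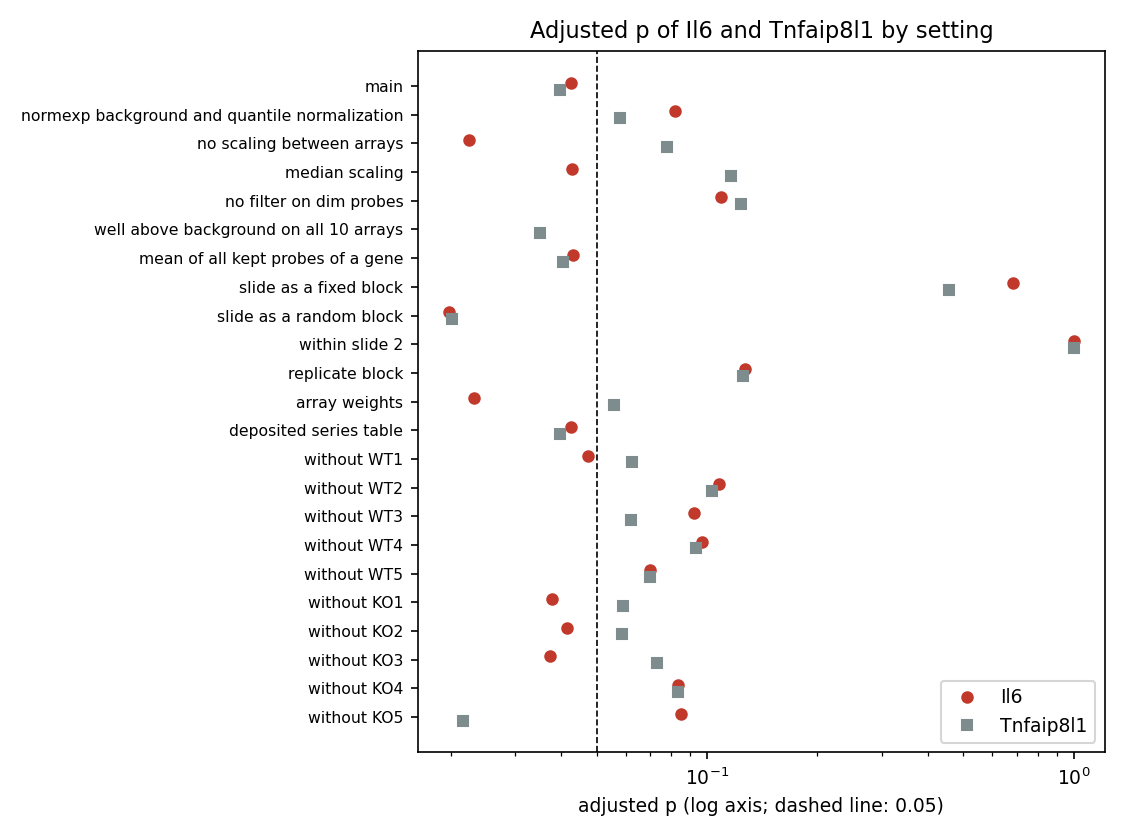
Adjusted p (horizontal log axis, dashed line at 0.05) of Il6 and Tnfaip8l1 under the main setting, each alternative and each left-out array (vertical axis). Both lie to the right of the line in many settings, and Il6 has no point where detection on all 10 arrays was required.

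Where a gene had a second probe that passed the filter, both mostly had the same sign. Over 18 probe pairs in 16 genes, 15 had the same sign and 3 the opposite, those of Il15, Il1rap and 1 pair of Il17rc. Il33, outside the rule and listed under a clone name, was detected on all 10 arrays and differed by -0.25 ± 0.11 (adjusted p = 0.210). It encodes an alarmin of endothelium and stellate cells.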

How the data were processed

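Cy3 intensities of 10 one-colour arrays (5 wild-type and 5 knockout liver samples) were used. Per the file headers, the authors used version 9.5.1.1 of Agilent Feature Extraction (the submitters' processing notes give 9.5). Its settings in those headers subtract background and a spatial trend within each array, and the deposited intensity values carry no scaling between arrays. These are also the values of the series table. The flags for signal above background, outliers and saturation are the program's own, per the file headers.

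Processed signals were put on the log2 scale here, from the deposited intensities, with no pseudocount, and the array's 75th percentile over non-control spots was subtracted. Outlier spots were left out and replicate spots averaged. Probes detected on at least 4 of 5 arrays of 1 group were kept (23266), and the probe with the highest mean stood for its gene, which left 15810 genes. No value of a tested member was missing. Symbols were updated through a RefSeq table by accession (22944 probes), symbol (6664) or older symbol (3108), and 8458 probes stayed as named by the files. Promoter sequences are RefSeq's (GRCm38.p6).

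The comparison used limma 3.58.1 in R 4.3.3 (lmFit, then eBayes) with genotype as its single term and two-sided p-values, adjusted over the 15810 genes (Benjamini-Hochberg). The fit was tested on simulated arrays. Exact permutation tests used all 252 assignments. The members, gene lists and alternatives were chosen with earlier results of these data known. Genes were named if called, among the 8 with the smallest p in each direction, detected on at least 4 arrays of 1 group and at most 1 of the other, or on a list of readouts (Tnf, Il1a, Il1b, Il1rn, Il1r1, Il1rap, Il6, Il6ra, Il6st, Il10, Il12b, Il15, Il18, Il18bp, Il33, Tnfrsf1a, Tnfrsf1b, Tnfsf10, Tnfaip3). Other members are named as examples of their family. The second signalling list leaves out Cd27, Cd70 and Relt, which are members. The number of arrays limits the precision.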

Additional observations from a re-analysis of the deposited data

Results flagged for a closer look

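Of 48 groups of 5 arrays, those of the named genes that were tested, 4 held an array that stood apart by Dixon's test at the 95% level, and chance flags about 1 group in 20. Il1a was low on KO4, at -3.83 against -2.85 for the nearest knockout array. Il6st was high on KO2, at 3.13 against 2.54 for the nearest. Tnfaip8l1 was low on KO5, at 3.87 against 4.24 for the nearest. Tnfrsf11b was low on WT1, at -1.66 against -1.26 for the nearest wild-type array. All 4 signals were well above background.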

How the results depend on the processing

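The median difference of the tested members stayed positive in every alternative, from 0.11 with median scaling to 0.32 with no scaling. Members called higher, 2 in the main setting, were 0 with normexp and quantile normalisation, 0 with no filter and 0 with slide as a fixed block. They were 1 with median scaling, 1 with detection on all 10 arrays and 0 to 2 with 1 array left out. With slide as a random block they were 3, and with array weights also 3. Members called lower, 0 in the main setting, were 1 with array weights and 0 to 1 with 1 array left out. Replicate numbers did not pair the samples (correlations of -0.21 to 0.04 between same-numbered arrays). The replicate block left 0 members higher and 0 lower, and 0 lower in the NF-kappaB list. In the JAK-STAT list the 2 higher were 1 with no filter, 1 with the mean of all probes, 0 with slide as a fixed block, 0 within slide 2 and 1 to 2 with 1 array left out. Its 0 lower became 1 with array weights and 0 to 1 with 1 array left out. In the NF-kappaB list the 2 lower were 0 with no scaling, 0 with no filter, 0 with slide as a fixed block, 0 within slide 2 and 0 to 2 with 1 array left out, and its 0 higher became 2 without KO1. Over all genes, the calls of 385 higher and 550 lower became 80 and 167 with no filter, 13 and 25 with slide as a fixed block, 2 and 0 within slide 2, 60 and 106 with the replicate block, 644 and 807 with slide as a random block, and 113 and 184 without WT2. Apart from the leave-outs, Il6 passed with no scaling, median scaling, slide as a random block and array weights, and Tnfaip8l1 with detection on all 10 arrays and slide as a random block. Both also passed with the deposited table and with the mean of all probes, which leave their own values as they are. Among members not called in the main setting, Il27ra passed with no scaling, with array weights and without KO1, Il1rl2 with slide as a random block, with array weights and without KO2, Il1rn with array weights and without KO2, Il1a without KO4 and Il11 without WT5. Among the genes named by rule, signs turned only in differences that were not called. Il15 was -0.23 and Tnfsf10 0.18 with slide as a fixed block and within slide 2. With 1 array left out, Il18 ran from -0.0085 to 0.24, Il1rap from -0.16 to 0.038, Il21r from -0.64 to 0.021 and Tnfrsf1a from -0.16 to 0.21. Il1rap was 0.015 with normexp, 0.022 with no scaling and 0.0076 with the mean of all probes, and Tnfrsf1a was -0.031 with median scaling and -0.075 with array weights. The causes were not tested, and the dim probe of Il6 gives only an upper limit on 4 of 5 wild-type arrays.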
